A study of Mus musculus with 14 samples.

Results

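Imprinted genes were followed in mouse fibroblasts, induced pluripotent stem cells (iPSC) and embryonic stem cells (ESC) over 14 expression arrays. The set was a fixed list of 37 gene symbols, and all probes annotated to them were read. Of these, 34 had a probe on the array (51 of 25697 probes) and 24 were tested, among 10004 tested genes of 16593 with a probe. A gene was tested when its probe passed detection on every array of at least 1 group, so the 24 are not the whole list. A gene not detected on every array of a group passed through other groups. A lower level in that group is then partly built in by the filter. H19, Meg3 and Zdbf2 were matched to no probe. The 14 probes of Asb4, Kcnq1, Magel2, Nap1l5, Peg12, Plagl1, Rtl1, Sgce, Usp29 and Zim1 lay at background, with log2 intensities of 4.29 to 5.58 and detection on at most 2 arrays. Magel2 passed detection on Y-iPSC 4 and Y-SC 16, and Nap1l5 on A-SC 1.3 and Y-SC 1.

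Imprinted genes are expressed mainly or only from the copy inherited from one parent. Their choice of copy is set by methylation marks laid down in egg or sperm at control regions, which often govern a cluster of neighbouring genes, and these marks can be lost or altered in cultured pluripotent cells. Many paternally expressed members, such as Igf2, Peg3, Mest and Dlk1, act in growth of the fetus and placenta, and several maternally expressed ones, such as Igf2r, Cdkn1c and Phlda2, hold growth back. A probe on the array reads the RNA of both copies together. No statement about the parental copy in use can be drawn from the values below. The list held 21 genes classed as paternally expressed, of which 13 were tested, and 14 classed as maternally expressed, of which 9 were tested. Grb10 and Gnas were classed as dependent on promoter and tissue. These classes are labels given to the list, and whether they hold in the cells used here was not tested.

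The series asks how iPSC from aged donors differ from iPSC of young donors and from ESC, and what added ZSCAN10, a zinc finger protein expressed in pluripotent cells, changes. All fibroblasts came from B6CBAF1 mice. The groups were iPSC from aged fibroblasts that carried doxycycline-inducible ZSCAN10, induced with 2 µg/ml (A-iPSC-ZSCAN10, clones 3 and 7), iPSC from aged fibroblasts (A-iPSC, clones 16 and 19), iPSC from young fibroblasts (Y-iPSC, clones 12 and 4), fibroblasts from tail tip skin at 1.5 years (A-SC, 3 arrays), skin fibroblasts of E17.5 embryos (Y-SC, 3 arrays) and ESC (lines D and H). All 3 iPSC groups had received retroviruses for mMYC (in pEYK) and for mOCT4, mSOX2 and mKLF4 (in pMX); ESC and iPSC grew in serum with LIF. Stage of development and body site differed along with donor age and cannot be told apart from it. Only the A-iPSC-ZSCAN10 arrays are labelled with doxycycline, so the drug and added ZSCAN10 cannot be told apart either. Below, "with ZSCAN10" names the comparison of A-iPSC-ZSCAN10 with A-iPSC and assigns no cause. The strain of the ESC lines is not given in the sources used here. Whether arrays of 1 group came from separate cultures or animals is not labelled; the p-values therefore measure only spread among these samples, which may be technical. The fibroblast arrays whose label has no clone code are called A-SC 1 and Y-SC 1.

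Arrays had a median signal of 111 to 148 and detected 47.6% to 52.3% of probes; their small number limits the precision. Replicate arrays correlated at 0.923 to 0.986 over the probes. Some arrays stood apart from their group or went against their label. A-SC 1 had a mean log2 level of 8.37 over the 4 endothelial markers, against 4.67 and 4.88 on the other A-SC arrays. Y-SC 17 had fibroblast markers at 8.63, against 10.3 and 10.6 on the other Y-SC arrays, and macrophage markers at 8.03, against 6.03 and 7.21. Y-SC 1 had keratinocyte markers at 6.37, with 6 of 8 detected, against 4.69 and 4.63 on the other Y-SC arrays. Signals of 4 fibroblast arrays (A-SC 1.3, A-SC 1.4, Y-SC 16 and Y-SC 17) were written with 1 decimal in the deposited table and the other 10 with more. The 4 arrays also differed in scale, with highest signals of 30939 to 34281, against 10892 to 17683 on the others. Among the 10, both A-iPSC-ZSCAN10 arrays were written with 4 decimals and the rest with 5. That split coincides with added ZSCAN10 and cannot be told apart from it. What these differences reflect is not labelled. ESC detected 10 of 10 pluripotency markers, but A-iPSC detected 5, with Nanog, Esrrb, Utf1, Lin28a and Tdgf1 on no array. A-iPSC-ZSCAN10 detected 7 of them, with Tdgf1 on no array, and Y-iPSC detected 10 on clone 12 and 5 on clone 4.

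The RefSeq promoter windows of GRCm38.p6 (300 bases, from 250 before to 50 after a gene's start) were read for 30 of the 37 members. No window was read for Cdkn1c, H19, Impact, Kcnq1, Peg10, Rtl1 and Sgce. For Impact this does not show that the table used held no entry, and the counts below leave it out. The windows of 5 members on which the iPSC comparisons turn are shown because imprints are methyl groups on CG dinucleotides, printed in capitals; for a gene with several windows the one with most CG is given. Grb10 lies at chr11:12037371-12037670 on the minus strand, and the neighbouring Ddc at chr11:11890359-11890658 on the minus strand. Ppp1r9a lies at chr6:4903061-4903360 on the plus strand, Peg3 at chr7:6730370-6730669 on the minus strand and Phlda2 at chr7:143502475-143502774 on the minus strand.
Grb10: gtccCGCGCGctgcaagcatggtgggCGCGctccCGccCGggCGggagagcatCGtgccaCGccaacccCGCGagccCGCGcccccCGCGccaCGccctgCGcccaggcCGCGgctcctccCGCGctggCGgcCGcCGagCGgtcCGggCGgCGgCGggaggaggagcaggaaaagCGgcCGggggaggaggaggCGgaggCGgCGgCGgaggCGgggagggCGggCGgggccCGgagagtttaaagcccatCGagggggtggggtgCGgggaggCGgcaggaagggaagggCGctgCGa
Ppp1r9a: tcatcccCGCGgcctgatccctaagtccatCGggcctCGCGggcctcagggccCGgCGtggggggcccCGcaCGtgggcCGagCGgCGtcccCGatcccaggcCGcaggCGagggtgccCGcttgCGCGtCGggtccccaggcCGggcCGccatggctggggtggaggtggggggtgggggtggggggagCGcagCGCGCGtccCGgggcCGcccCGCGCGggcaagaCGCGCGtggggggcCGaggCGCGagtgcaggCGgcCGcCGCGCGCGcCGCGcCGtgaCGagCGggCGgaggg
Ddc: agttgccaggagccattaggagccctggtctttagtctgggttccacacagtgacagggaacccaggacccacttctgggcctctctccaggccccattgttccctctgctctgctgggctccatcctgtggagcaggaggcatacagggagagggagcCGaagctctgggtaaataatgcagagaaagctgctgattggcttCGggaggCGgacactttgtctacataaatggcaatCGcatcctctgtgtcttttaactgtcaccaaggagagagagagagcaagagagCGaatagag
Peg3: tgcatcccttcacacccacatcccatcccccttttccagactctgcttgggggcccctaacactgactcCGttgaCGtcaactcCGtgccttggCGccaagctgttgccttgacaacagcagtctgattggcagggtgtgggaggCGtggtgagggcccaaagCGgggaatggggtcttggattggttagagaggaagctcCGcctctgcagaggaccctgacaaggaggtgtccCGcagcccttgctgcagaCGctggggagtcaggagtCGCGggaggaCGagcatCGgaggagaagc
Phlda2: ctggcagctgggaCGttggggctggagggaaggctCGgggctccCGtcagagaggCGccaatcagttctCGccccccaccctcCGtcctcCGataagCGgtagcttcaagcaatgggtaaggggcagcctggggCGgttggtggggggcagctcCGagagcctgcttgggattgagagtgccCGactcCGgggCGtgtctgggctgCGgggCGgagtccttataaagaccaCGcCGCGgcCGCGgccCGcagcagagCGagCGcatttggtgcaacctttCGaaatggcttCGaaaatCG

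These windows differed widely in CG content. The Ppp1r9a window held 48 CG, a count reached by 1.22% of all 32851 windows, and the Grb10 window held 45 (1.93%). Phlda2 held 26 (16.9%), Peg3 held 13 (37.9%) and Ddc held 5 (62%). The median was 14 CG over 49 member windows, against 7 over all windows. The Peg3 window overlapped that of Usp29, which is read in the opposite direction, by 263 bases. The hexamer TGCCGC, which the imprint protein ZFP57 binds when its CG is methylated, was searched on both strands and stood in 22.4% of member windows, against 11.6% of all windows. The members with it were Grb10, Igf2, Meg3, Mest, Nap1l5, Nnat, Plagl1, Snrpn, Zdbf2 and Zim1. A match is a description of these letters, and methylation was not measured. Windows were placed by gene start and were not matched to imprint control regions. The hexamer itself contains a CG, and its shares were not adjusted for the higher CG count of member windows.

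Over the 6 groups, 11 of the 24 tested members had their highest mean level in ESC, among them Igf2, Cdkn1c, Phlda2, Peg10 and Mest. A-iPSC and A-SC held the lowest mean of 8 members each. These counts were not taken over all tested genes, so they describe the members and do not set them apart from other genes. The spread of group means was smallest for Cd81, a tetraspanin at the edge of the Kcnq1ot1 cluster, at 0.34 on the log2 scale, and largest for Ddc at 6.77. Over 11 comparisons, 21 of the 24 passed the test at least once, and Cd81, Tssc4 and Ube3a did not. The share of all tested genes called at least once was not taken. This count too does not set the members apart from other genes. A call below is a Benjamini-Hochberg adjusted p under 0.05 from limma over all tested probes. Differences are log2 intensity ± SE, with the 2 or 3 arrays of each group given above.

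**Figure D1:**
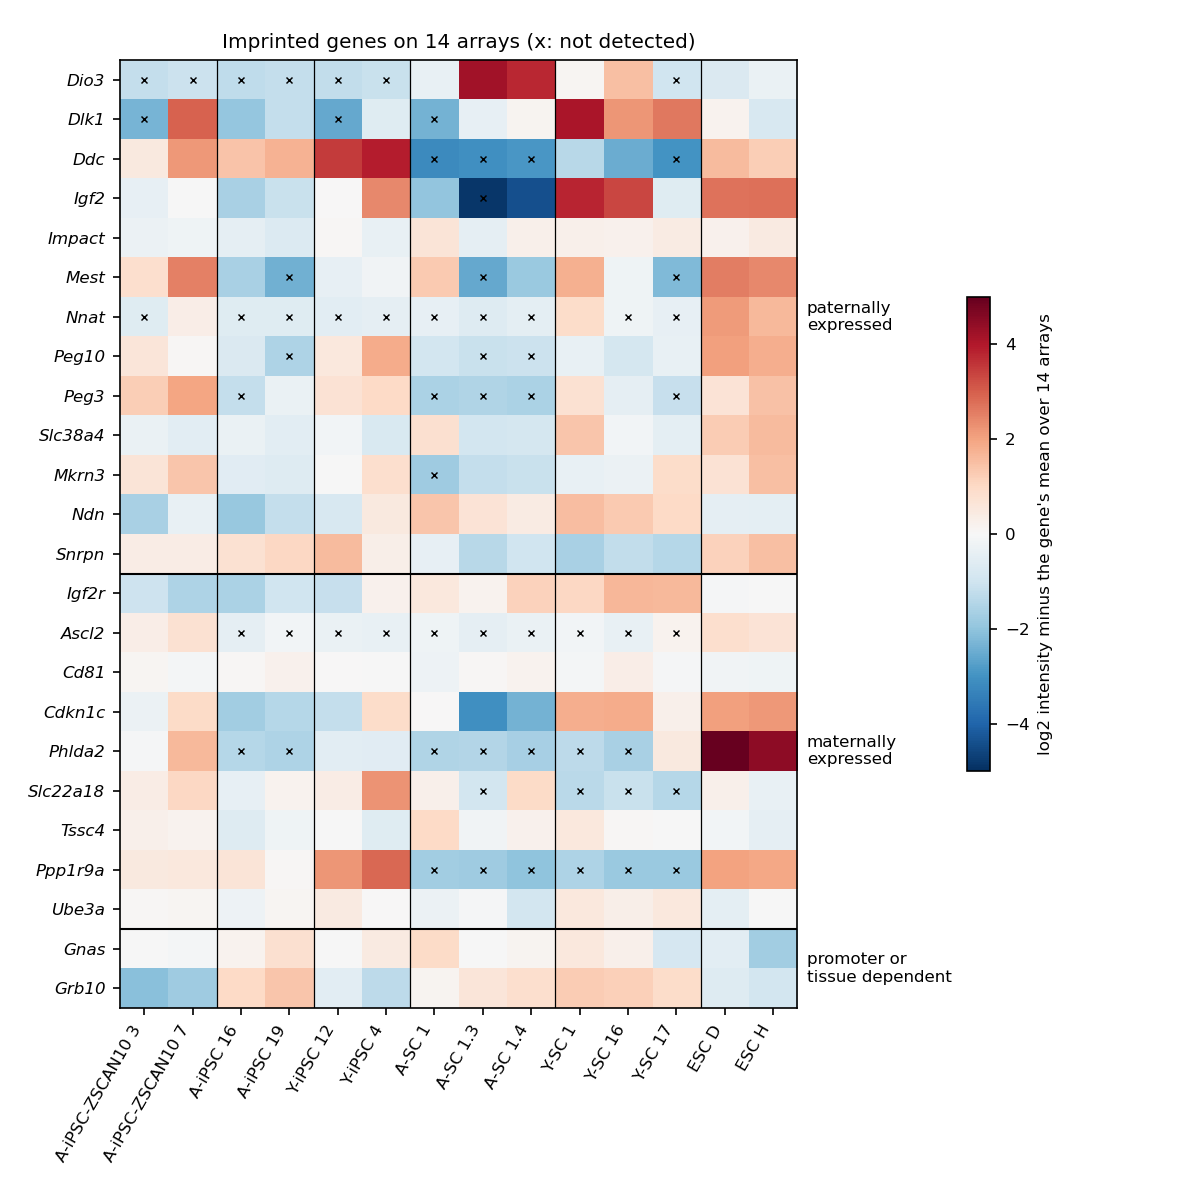
Log2 intensity of the 24 tested imprinted genes (rows) on 14 arrays (columns), each as its difference from the gene's own mean over all arrays (colour); a cross marks an array that did not detect the gene. ESC hold the highest group mean of 11 members, a count not taken over all tested genes. Ppp1r9a and Ddc are above their own mean on all 8 pluripotent arrays, and both passed the detection filter through the pluripotent groups alone.

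Between iPSC from aged and young donors, 4 members differed. Grb10, an adaptor that restrains insulin and IGF receptor signalling, was higher in A-iPSC. Peg10, a gene derived from a retrotransposon and needed in the placenta, its neighbour Ppp1r9a, which encodes the actin-binding protein neurabin I, and Ddc, the enzyme that makes dopamine and serotonin and lies beside Grb10, were lower. The calls numbered 2 without A-iPSC 19 and 7 without Y-iPSC 12, and 0 passed where limma was fitted to these 4 arrays alone. The 4 calls among 24 members stand against 10.5% of all tested genes called (6.12% higher and 4.38% lower). The median difference of members was -0.62, against -0.01 over all genes. Of the 13 paternally expressed members 2 were lower (Peg10 and Ddc), of the 9 maternally expressed 1 was lower (Ppp1r9a), and Grb10 was higher.

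With ZSCAN10, 6 members were called between A-iPSC-ZSCAN10 and A-iPSC, but 1 to 4 in the fits without 1 array (1 without A-iPSC-ZSCAN10 7, 2 without A-iPSC 16 or A-iPSC 19) and 2 in the authors' value table. Grb10 was lower, and Peg10, Peg3, Mkrn3, Phlda2 and Ascl2 were higher. The calls were 5 higher and 1 lower of 24, against 16.2% of all genes called (7.78% higher and 8.38% lower). The median of members was 0.50, against 0.03 over all genes. Of the paternally expressed 3 of 13 were higher, and of the maternally expressed 2 of 9. Over all genes 778 were higher and 838 lower, and with median scaling in place of quantile normalization 1059 and 643; the members then had 6 higher and 1 lower. The A-iPSC arrays enter both comparisons, and a common direction in them is not independent. In A-iPSC-ZSCAN10 minus Y-iPSC, with 1.45% of all genes called (0.67% higher and 0.78% lower), Ppp1r9a was the 1 member that passed, and it was lower.

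In the Grb10 cluster on chromosome 11, Grb10 separated the 3 iPSC groups and Ddc did not. Grb10 had log2 levels of 9.62 and 9.92 in A-iPSC-ZSCAN10, 12.69 and 13.08 in A-iPSC, 11.17 and 10.38 in Y-iPSC, 11.84, 12.31 and 12.54 in A-SC, 12.99, 12.90 and 12.61 in Y-SC, and 11.05 and 10.77 in ESC. A-iPSC lay with the fibroblasts, the A-iPSC-ZSCAN10 arrays lay below every other array, and no iPSC group overlapped another. Of all genes, 69.9% did not overlap in A-iPSC-ZSCAN10 minus A-iPSC, 56.1% in A-iPSC minus Y-iPSC and 47% in A-iPSC-ZSCAN10 minus Y-iPSC. Grb10 was lower in A-iPSC-ZSCAN10 compared with A-iPSC, at -3.11 ± 0.32 (adjusted p = 0.00015). It was higher in A-iPSC compared with Y-iPSC by 2.11 ± 0.32 (adjusted p = 0.00208). In A-iPSC-ZSCAN10 minus Y-iPSC the difference did not pass the test.

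Grb10 also fell when young fibroblasts were reprogrammed, with -2.06 ± 0.29 in Y-iPSC minus Y-SC (adjusted p = 0.000462). In A-iPSC minus A-SC it was not called. The change at reprogramming differed between donors, with 2.72 ± 0.41 for the aged minus the young change (adjusted p = 0.00429), and 3.99% of all genes were called in that test (2.44% higher and 1.55% lower). A-iPSC-ZSCAN10 had less Grb10 than A-SC, at -2.46 ± 0.29 (adjusted p = 0.00024). The Grb10 differences between A-iPSC-ZSCAN10 and A-iPSC, at reprogramming of young cells, between A-iPSC-ZSCAN10 and A-SC, and of the donors' changes passed without each array in turn and in all other settings tried. That between A-iPSC and Y-iPSC passed without each array in turn, and was lost only where the fit held no other arrays. Keratinocyte markers were at mean log2 levels of 7.38 and 7.79 in A-iPSC-ZSCAN10, 4.94 and 4.88 in A-iPSC and 7.94 and 7.13 in Y-iPSC. Of the 8 markers 4 were detected in A-iPSC-ZSCAN10, 3 and 2 in A-iPSC and 4 in Y-iPSC. Krt5 and Trp63 were on no array of the 3 groups, Krt15 and Perp on none of A-iPSC-ZSCAN10 and Y-iPSC, and Krt14 and Krt17 on none of A-iPSC. Their summed intensity was 8826 to 13191 in A-iPSC-ZSCAN10, 939 to 990 in A-iPSC and 4811 to 11540 in Y-iPSC, and their part in the differences between the iPSC groups was not tested.

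Ddc, a paternally expressed neighbour of Grb10, had 8.10 and 9.78 in A-iPSC-ZSCAN10, 9.05 and 9.37 in A-iPSC, 11.13 and 11.55 in Y-iPSC, 4.44, 4.55 and 4.72 in A-SC, 6.25, 5.16 and 4.64 in Y-SC, and 9.20 and 8.87 in ESC. No A-SC array detected Ddc and 2 of 3 Y-SC arrays did, while all pluripotent arrays did, with Y-iPSC above the rest. Ddc thus passed the detection filter through the pluripotent groups alone, so lower levels in fibroblasts are partly built in by the filter. Where no array of a group detected a gene, the fold was taken against the lowest detected signal on those arrays and is a lower bound. Compared with A-SC, Ddc rose at least 14.4-fold in A-iPSC-ZSCAN10 (adjusted p = 0.000153) and at least 17.3-fold in A-iPSC (adjusted p = 3.97e-05). In Y-iPSC minus Y-SC it rose by 5.99 ± 0.49 (adjusted p = 8.78e-06). A-iPSC minus Y-iPSC gave -2.14 ± 0.54 (adjusted p = 0.0281), which was lost without Y-iPSC 4, A-iPSC 16 or A-iPSC 19. Within this cluster Grb10 was higher and Ddc lower in A-iPSC compared with Y-iPSC. In bulk RNA a lower level can mean fewer cells with the transcript or less of it per cell, and the values do not tell these apart.

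In the Peg10 cluster on chromosome 6, the paternally expressed Peg10 and the maternally expressed Ppp1r9a were both lower in A-iPSC compared with Y-iPSC. Ppp1r9a had 7.01 and 7.05 in A-iPSC-ZSCAN10, 7.18 and 6.59 in A-iPSC, 8.74 and 9.38 in Y-iPSC, 4.78, 4.73 and 4.53 in A-SC, 4.99, 4.68 and 4.68 in Y-SC, and 8.52 and 8.47 in ESC. No fibroblast array detected it and every iPSC and ESC array did, and Y-iPSC and ESC lay above both aged iPSC groups. Ppp1r9a thus passed the detection filter through the pluripotent groups alone, so lower levels in fibroblasts are partly built in by the filter. Over the fibroblasts of the same donor age, Ppp1r9a rose at least 3.81-fold in A-iPSC-ZSCAN10, at least 3.45-fold in A-iPSC and at least 15.8-fold in Y-iPSC (adjusted p = 0.000106, 6.26e-05 and 5.61e-07 in that order). The fitted change in A-iPSC minus A-SC less that in Y-iPSC minus Y-SC was -2.07 ± 0.35 (adjusted p = 0.0081). Since both fibroblast levels were below detection, this value depends on the floor of the signal and does not show which rise was larger. The call was lost without A-iPSC 19 and without the 4 arrays of 1 decimal (-1.96, adjusted p = 0.105). A-iPSC minus Y-iPSC was -2.18 ± 0.27 (adjusted p = 0.000655) and A-iPSC-ZSCAN10 minus Y-iPSC was -2.03 ± 0.27 (adjusted p = 0.00472). Both calls were lost where the fit held no other arrays (adjusted p = 0.072 and 0.262), and held without each array in turn. A-iPSC-ZSCAN10 and A-iPSC differed by 0.14 ± 0.27, which did not pass the test.

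Peg10 had 6.70 and 6.15 in A-iPSC-ZSCAN10, 5.36 and 4.53 in A-iPSC, 6.59 and 7.94 in Y-iPSC, 5.18, 4.97 and 5.02 in A-SC, 5.72, 5.20 and 5.71 in Y-SC, and 8.14 and 7.91 in ESC. Of the A-iPSC arrays only clone 16 detected it, so the size of its differences depends on the floor of the signal. Peg10 was lower in A-iPSC compared with Y-iPSC, at -2.32 ± 0.42 (adjusted p = 0.0054), a call lost without A-iPSC 19, and higher in A-iPSC-ZSCAN10 compared with A-iPSC by 1.48 ± 0.42 (adjusted p = 0.0324), a call that, with 1 array left out, held only where this was A-iPSC 16. Y-iPSC minus Y-SC gave 1.72 ± 0.38 (adjusted p = 0.00718), which was lost without Y-iPSC 4. A-iPSC-ZSCAN10 minus A-SC gave 1.37 ± 0.38 (adjusted p = 0.0255), which was lost without A-SC 1.3, A-SC 1.4 or either A-iPSC-ZSCAN10 array. A-iPSC minus A-SC was not called.

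Among members called higher in A-iPSC-ZSCAN10 against A-iPSC, the largest fitted difference was that of Peg3, a zinc finger gene of growth and behaviour. It had 7.26 and 8.03 in A-iPSC-ZSCAN10, 4.85 and 5.69 in A-iPSC, 6.76 and 7.03 in Y-iPSC, 4.47, 4.55 and 4.46 in A-SC, 6.79, 5.59 and 4.87 in Y-SC, and 6.73 and 7.49 in ESC. No A-SC array and 1 of 2 A-iPSC arrays detected Peg3, whereas A-iPSC-ZSCAN10, Y-iPSC and ESC detected it throughout. Peg3 passed the detection filter through these last groups alone, so lower levels in the others are partly built in by the filter. A-iPSC-ZSCAN10 exceeded A-iPSC by 2.37 ± 0.53 (adjusted p = 0.0121), a call lost without A-iPSC-ZSCAN10 7 or A-iPSC 16. In A-iPSC-ZSCAN10 Peg3 was at least 5.85-fold higher compared with A-SC (adjusted p = 0.00119), a call that held without each array in turn.

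The Snrpn cluster on chromosome 7 did not move as 1 unit. Mkrn3, a ring finger gene linked to the onset of puberty, had 7.11 and 7.83 in A-iPSC-ZSCAN10, 5.89 and 5.79 in A-iPSC, 6.42 and 7.30 in Y-iPSC, 4.69, 5.26 and 5.33 in A-SC, 6.07, 6.18 and 7.37 in Y-SC, and 7.16 and 7.95 in ESC. A-iPSC lay below the other pluripotent arrays. A-iPSC-ZSCAN10 minus A-iPSC was 1.63 ± 0.48 (adjusted p = 0.0381), a call lost without any 1 of the 4 arrays. A-iPSC-ZSCAN10 minus A-SC was 2.37 ± 0.43 (adjusted p = 0.00328), a call lost without A-iPSC-ZSCAN10 7.

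Snrpn, which encodes a splicing protein, had 11.57 and 11.56 in A-iPSC-ZSCAN10, 11.94 and 12.24 in A-iPSC, 12.76 and 11.49 in Y-iPSC, 10.80, 9.82 and 10.18 in A-SC, 9.57, 9.96 and 9.76 in Y-SC, and 12.36 and 12.68 in ESC. All pluripotent arrays lay above all fibroblast arrays. It rose in A-iPSC-ZSCAN10 by 1.3 ± 0.37, in A-iPSC by 1.82 ± 0.37 and in Y-iPSC by 2.37 ± 0.37 over the fibroblasts of the same donor age (adjusted p = 0.0266, 0.00273 and 0.000791 in that order). The first call was lost without A-SC 1.3, A-SC 1.4 or either A-iPSC-ZSCAN10 array, and the gene's second probe gave 1.00 (adjusted p = 0.15). Ndn, a MAGE family gene of neurons and muscle, had 9.11 and 10.39 in A-iPSC-ZSCAN10, 8.85 and 9.57 in A-iPSC, 9.95 and 11.23 in Y-iPSC, 12.12, 11.44 and 11.17 in A-SC, 12.31, 12.05 and 11.75 in Y-SC, and 10.31 and 10.25 in ESC. Ndn ran the other way, with every iPSC group below its fibroblasts. It fell by 1.83 ± 0.46 in A-iPSC-ZSCAN10, by 2.37 ± 0.46 in A-iPSC and by 1.45 ± 0.46 in Y-iPSC (adjusted p = 0.016, 0.00222 and 0.0398), and the first was lost without A-iPSC-ZSCAN10 3 and the last without Y-SC 1, Y-SC 16 or Y-iPSC 12. Ube3a, the maternally expressed ubiquitin ligase at the end of this cluster, lay between 6.78 and 8.22 on all arrays and was not called.

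The maternally expressed Kcnq1ot1 cluster on distal chromosome 7 held 2 of the calls with ZSCAN10. Phlda2, which limits placental growth, had 6.08 and 7.78 in A-iPSC-ZSCAN10, 4.71 and 4.59 in A-iPSC, 5.62 and 5.59 in Y-iPSC, 4.63, 4.69 and 4.48 in A-SC, 4.82, 4.54 and 6.63 in Y-SC, and 11.28 and 10.62 in ESC. ESC stood far above all other arrays, and A-iPSC did not detect the gene. Phlda2 passed the detection filter through A-iPSC-ZSCAN10, Y-iPSC and ESC alone, so lower levels in the others are partly built in by the filter. In A-iPSC-ZSCAN10 it was at least 3.55-fold higher compared with A-iPSC (adjusted p = 0.031) and at least 3.56-fold higher compared with A-SC (adjusted p = 0.0155). Both calls were lost without A-iPSC-ZSCAN10 7, and the first also without A-iPSC 16 or A-iPSC 19. Ascl2, a transcription factor of the trophoblast, had 5.22 and 5.64 in A-iPSC-ZSCAN10, 4.45 and 4.74 in A-iPSC, 4.57 and 4.51 in Y-iPSC, 4.68, 4.45 and 4.58 in A-SC, 4.75, 4.51 and 5.09 in Y-SC, and 5.75 and 5.59 in ESC. Only A-iPSC-ZSCAN10 and ESC detected Ascl2. The gene passed the detection filter through these groups alone, so lower levels in the others are partly built in by the filter. In A-iPSC-ZSCAN10 its level was at least 1.25-fold higher compared with A-iPSC (adjusted p = 0.0428) and at least 1.26-fold higher compared with A-SC (adjusted p = 0.022). The call against A-iPSC was lost without any 1 of the 4 arrays, and that against A-SC without A-SC 1.3, A-SC 1.4 or A-iPSC-ZSCAN10 7.

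Slc22a18, a transporter gene of the same cluster, was the cluster's 1 call at reprogramming of young cells. It had 6.25 and 6.89 in A-iPSC-ZSCAN10, 5.48 and 6.04 in A-iPSC, 6.24 and 8.11 in Y-iPSC, 6.11, 4.96 and 6.84 in A-SC, 4.51, 4.78 and 4.43 in Y-SC, and 6.11 and 5.49 in ESC. No Y-SC array detected it. The gene passed the detection filter through the pluripotent groups alone, so lower levels in fibroblasts are partly built in by the filter. The level was at least 4.29-fold higher in Y-iPSC than in Y-SC (adjusted p = 0.00679), a call lost without Y-iPSC 4. A second Slc22a18 probe, detected on 1 array and not tested, showed no rise. It had 4.84 and 4.67 in Y-iPSC and 4.91, 4.85 and 5.02 in Y-SC. Cd81 and Tssc4 were not called, but a second Tssc4 probe was lower in A-iPSC compared with A-SC at -1.28 (adjusted p = 0.00306) and higher in A-iPSC-ZSCAN10 compared with A-iPSC at 1.46 (adjusted p = 0.00626).

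Fibroblast markers were at mean log2 levels of 8.04 and 7.29 in A-iPSC-ZSCAN10, 6.13 and 6.19 in A-iPSC, 6.31 and 6.62 in Y-iPSC and 7.02 and 6.89 in ESC. Of the 10 markers, 8 were detected in A-iPSC-ZSCAN10, with Lum and Postn on no array, against 5 and 4 in A-iPSC, with Col1a2, Col3a1, Pdgfrb, Lum and Postn on none. The part of fibroblast RNA in the differences between the iPSC groups was not tested. Trophectoderm markers averaged 5.72 and 5.95 in A-iPSC-ZSCAN10, 5.52 and 5.82 in A-iPSC, 6.60 and 6.38 in Y-iPSC, and 8.13 and 7.76 in ESC, and their part in the placental members Phlda2, Ascl2 and Peg10 was not tested.

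**Figure D2:**
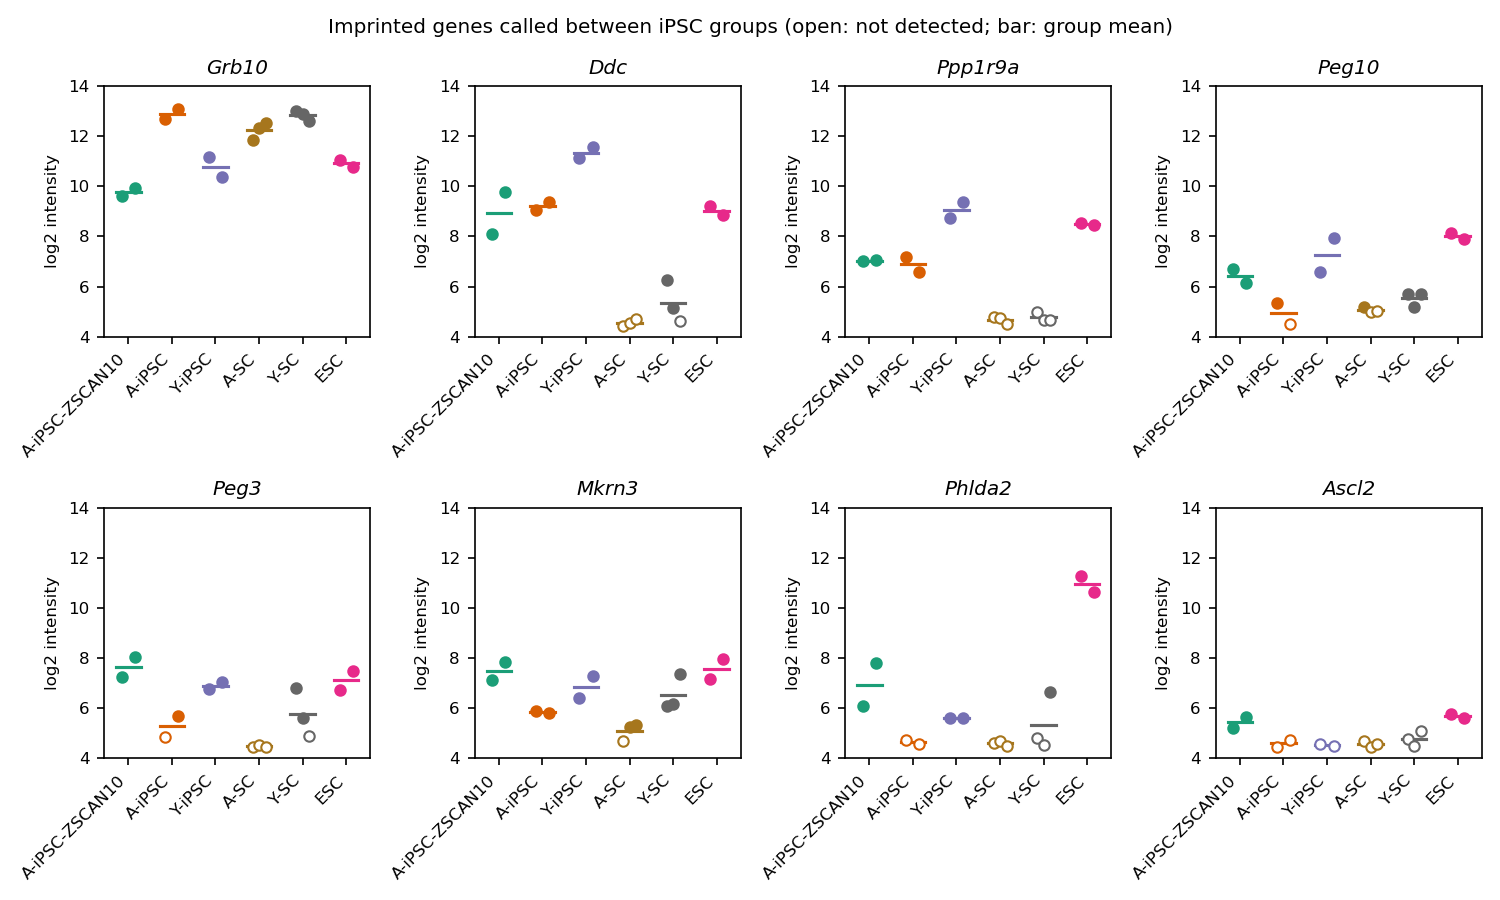
Log2 intensity (y axis) of the 8 members called between iPSC groups, in each group (x axis); points are arrays, open points arrays that did not detect the gene, and bars the group mean. Grb10 is at 9.62 and 9.92 in A-iPSC-ZSCAN10, below all other arrays, and Phlda2 is at 11.28 and 10.62 in ESC, above all other arrays.

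At reprogramming, members moved in both directions. In A-iPSC-ZSCAN10 minus A-SC, 8 were higher and 4 lower of 24, against 22% of all genes called (12% higher and 10% lower, or 1199 and 1003 genes). Median scaling turned this to 1666 and 744 over all genes and 9 and 4 over the members. In A-iPSC minus A-SC, 3 were higher and 3 lower, against 33.4% (17.9% higher and 15.5% lower), and in Y-iPSC minus Y-SC 5 were higher and 4 lower, against 24.6% (12.1% higher and 12.5% lower). Snrpn, Ppp1r9a and Ddc were higher and Ndn and Igf2r lower in all 3, of which the first 2 share the A-SC arrays. Median differences were 0.73, 0.03 and -0.23 for members in that order, against 0.05, 0.04 and 0.01 over all genes.

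Igf2r, the maternally expressed receptor that clears IGF2, had 7.82 and 7.30 in A-iPSC-ZSCAN10, 7.24 and 7.83 in A-iPSC, 7.69 and 9.06 in Y-iPSC, 9.35, 9.01 and 9.98 in A-SC, 9.88, 10.51 and 10.45 in Y-SC, and 8.77 and 8.82 in ESC. Each iPSC group lay below its fibroblasts without overlap. Of all genes, 55% did not overlap for A-iPSC-ZSCAN10, 57.6% for A-iPSC and 48.5% for Y-iPSC in these comparisons. Igf2r differed by -1.89 ± 0.41 in A-iPSC-ZSCAN10, -1.91 ± 0.41 in A-iPSC and -1.90 ± 0.41 in Y-iPSC (adjusted p = 0.00827, 0.00418 and 0.0063 in that order). These calls were lost without A-iPSC-ZSCAN10 7, A-iPSC 16 and Y-iPSC 12 in the same order, and all 3 without the 4 arrays of 1 decimal. The difference of the aged and young change was -0.01 and was not called.

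In the Dlk1-Dio3 cluster on chromosome 12, both tested members are paternally expressed, and their levels varied within groups. Dlk1, a membrane ligand related to the Notch ligands, had 4.65 and 9.93 in A-iPSC-ZSCAN10, 5.07 and 5.80 in A-iPSC, 4.41 and 6.38 in Y-iPSC, 4.62, 6.59 and 7.12 in A-SC, 11.05, 9.20 and 9.61 in Y-SC, and 7.18 and 6.20 in ESC. The A-iPSC-ZSCAN10 clones lay at opposite ends: clone 3 did not detect Dlk1 and clone 7 was as high as Y-SC. Y-iPSC minus Y-SC was -4.56 ± 1.27 (adjusted p = 0.0224), a call lost without Y-SC 1 or Y-iPSC 12. Dio3, which inactivates thyroid hormone, had 4.53 and 4.65 in A-iPSC-ZSCAN10, 4.46 and 4.54 in A-iPSC, 4.51 and 4.61 in Y-iPSC, 5.36, 9.93 and 9.49 in A-SC, 5.85, 7.25 and 4.73 in Y-SC, and 5.03 and 5.40 in ESC. No iPSC array detected it. Dio3 passed the detection filter through A-SC and ESC alone, so lower levels in the iPSC are partly built in by the filter. Compared with A-SC, Dio3 fell at least 9.51-fold in A-iPSC-ZSCAN10 (adjusted p = 0.0331) and at least 8.92-fold in A-iPSC (adjusted p = 0.0199). Both calls held only without A-SC 1 when arrays were left out in turn. Without A-SC 1.3 and A-SC 1.4, the A-SC arrays written with 1 decimal, and Y-SC 16 and 17, the differences were -0.77 (adjusted p = 0.076) and -0.85 (adjusted p = 0.0476).

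**Figure D3:**
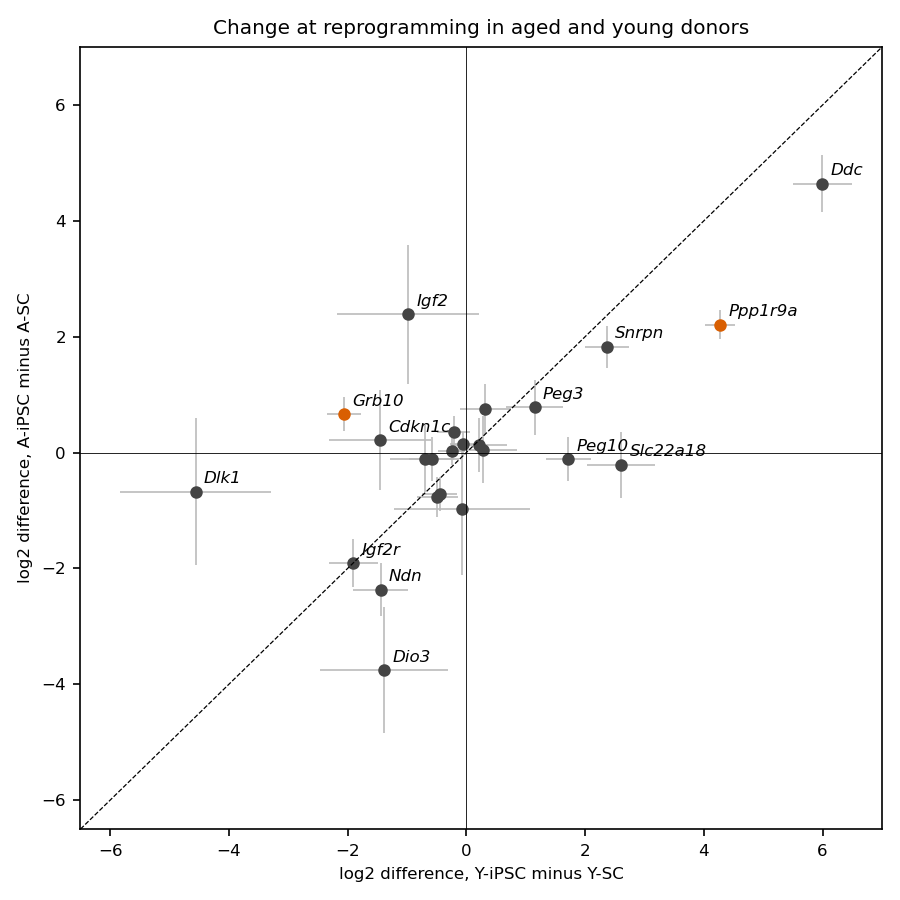
Log2 difference at reprogramming of aged cells (A-iPSC minus A-SC, y axis) against young cells (Y-iPSC minus Y-SC, x axis) for the 24 tested members, with standard errors and the line of equal change (dashed). The 2 orange points are Grb10 and Ppp1r9a, with a called difference of 2.72 and -2.07 between the donors' fitted changes; for Ppp1r9a both fibroblast groups were undetected.

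Between the fibroblasts themselves, 1 member passed. Igf2, the paternally expressed fetal growth factor, had 7.86, 4.95 and 5.43 in A-SC and 13.62, 13.15 and 9.21 in Y-SC. Its level was lower in A-SC, at -5.92 ± 1.07 (adjusted p = 0.0395), and no A-SC array reached the lowest Y-SC array, Y-SC 17. Of all genes 0.48% were called (0.21% higher and 0.27% lower), and the median of members was -0.60, against -0.04 over all genes. The call was lost without Y-SC 1, Y-SC 16, A-SC 1.3 or A-SC 1.4. Macrophage markers averaged 5.58, 5.44 and 5.55 in A-SC, with 2 of 6 detected, and 6.03, 7.21 and 8.03 in Y-SC, with 5 of 6 detected. Fcer1g, Adgre1 and Tyrobp were detected on no A-SC array, and Ptprc on none of either group. Keratinocyte markers averaged 4.56, 4.66 and 4.58 in A-SC, and 6.37, 4.69 and 4.63 in Y-SC. The part of either marker list in the fibroblast differences was not tested. The Igf2 difference was -5.99 between the arrays written with 1 decimal, where the adjusted p was 0.446. Between A-SC 1 and Y-SC 1, with 1 array per group, it was -5.76. In the pluripotent groups Igf2 had 9.40 and 9.78 in A-iPSC-ZSCAN10, 8.20 and 8.72 in A-iPSC, 9.84 and 12.20 in Y-iPSC, and 12.52 and 12.56 in ESC, and no comparison between iPSC groups called it.

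Cdkn1c, a maternally expressed inhibitor of the cell cycle, had 8.40, 5.31 and 6.03 in A-SC and 10.21, 10.25 and 8.64 in Y-SC, with no overlap. The difference of -3.12 ± 0.77 did not pass (adjusted p = 0.15). Dlk1 differed by -3.84 ± 1.13, also without overlap of groups (adjusted p = 0.245). Between the arrays of 1 decimal these differences were -3.77 for Cdkn1c and -2.55 for Dlk1, and between A-SC 1 and Y-SC 1 they were -1.82 and -6.43. In this comparison 9 of 24 members did not overlap between groups, against 12.6% of all genes. Dio3 was at 2.31 ± 0.97 with overlapping groups, and its sign turned to -0.49 between A-SC 1 and Y-SC 1. Mest, an enzyme-like gene of mesoderm, had 8.63, 4.80 and 5.49 in A-SC and 9.11, 7.12 and 5.15 in Y-SC, and within each group the array without a clone code was the highest.

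**Figure D4:**
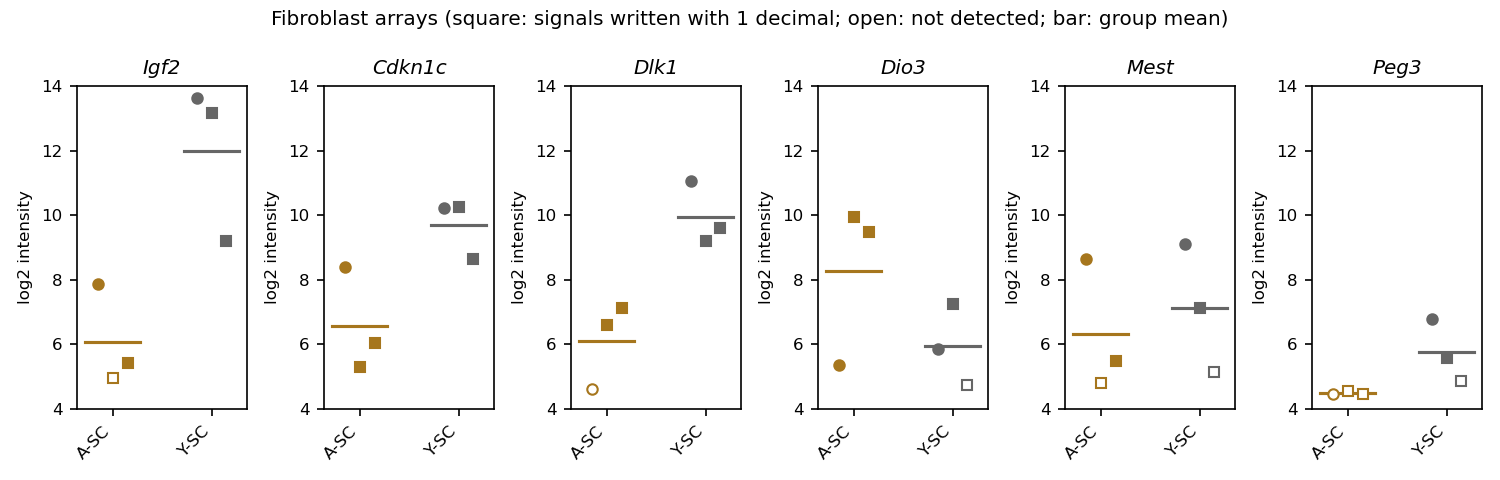
Log2 intensity (y axis) of 6 members on the A-SC and Y-SC arrays (x axis); squares are arrays written with 1 decimal, open symbols arrays that did not detect the gene, and bars the group mean. Igf2 and Dlk1 do not overlap between the groups, and the Dio3 values of 9.93 and 9.49 are on A-SC arrays written with 1 decimal.

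Against ESC, the aged iPSC without ZSCAN10 had the most calls. In A-iPSC minus ESC 13 members were lower and 2 higher of 24, against 35.5% of all genes called (17.3% higher and 18.1% lower). The median of members was -1.16, against -0.01 over all genes. Of the 13 paternally expressed 8 were lower, of the 9 maternally expressed 5 were lower, and Grb10 and Gnas were higher. Without 1 array the calls numbered 6 to 9, lowest without A-iPSC 16 or ESC H. In A-iPSC-ZSCAN10 minus ESC 5 were lower, against 13.2% (6.76% higher and 6.47% lower), with a median of -0.61, against 0.00. In Y-iPSC minus ESC 3 were lower and 1 higher, against 15% (7.49% higher and 7.53% lower), with a median of -0.45, against -0.03. These 3 comparisons share the ESC arrays, and counts of calls do not test whether the iPSC groups differ in their distance from ESC.

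Phlda2 and Nnat were lower than in ESC in all 3 iPSC groups. Phlda2, with the levels given above, was -4.02 ± 0.63 in A-iPSC-ZSCAN10, at least 57.5-fold lower in A-iPSC and -5.34 ± 0.63 in Y-iPSC (adjusted p = 0.00168, 3.58e-05 and 0.000204 in that order). All 3 held without each array in turn. Nnat, a paternally expressed membrane gene of neurons, had 4.39 and 5.33 in A-iPSC-ZSCAN10, 4.38 and 4.40 in A-iPSC, 4.47 and 4.55 in Y-iPSC, 4.60, 4.35 and 4.53 in A-SC, 5.90, 4.79 and 4.59 in Y-SC, and 7.13 and 6.61 in ESC. Among iPSC only A-iPSC-ZSCAN10 7 detected it. Nnat passed the detection filter through ESC alone, so lower levels in other groups are partly built in by the filter. It was -2.01 ± 0.42 in A-iPSC-ZSCAN10 (adjusted p = 0.00855, lost without A-iPSC-ZSCAN10 3 or ESC D), at least 3.41-fold lower in A-iPSC (adjusted p = 0.001) and at least 3.80-fold lower in Y-iPSC (adjusted p = 0.00315). A second Nnat probe gave -0.52 in A-iPSC minus ESC (adjusted p = 0.0522).

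Peg10 and Ppp1r9a were lower than in ESC in both aged iPSC groups. Peg10 differed by -1.60 ± 0.42 in A-iPSC-ZSCAN10 and -3.08 ± 0.42 in A-iPSC (adjusted p = 0.0273 and 0.000261), and the first was lost without any 1 of the 4 arrays. Ppp1r9a differed by -1.47 ± 0.27 and -1.61 ± 0.27 (adjusted p = 0.00487 and 0.0011), which held without each array. Grb10 lay on opposite sides of ESC, at -1.14 ± 0.32 in A-iPSC-ZSCAN10 (adjusted p = 0.0391) and 1.98 ± 0.32 in A-iPSC (adjusted p = 0.000824). The first was lost without any 1 of the 4 arrays and under median scaling. Ddc was higher in Y-iPSC than in ESC by 2.31 ± 0.54 (adjusted p = 0.0153), a call lost without Y-iPSC 4, ESC D or ESC H.

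Other members were called against ESC in A-iPSC. Mest had 8.20 and 9.85 in A-iPSC-ZSCAN10, 5.73 and 4.93 in A-iPSC, 6.93 and 7.18 in Y-iPSC, and 9.89 and 9.76 in ESC. A-iPSC was lower than ESC, at -4.49 ± 1.25 (adjusted p = 0.0165), with 1 of 2 A-iPSC arrays detecting the gene, and the call was lost without A-iPSC 19, ESC D or ESC H. A-iPSC-ZSCAN10 minus A-iPSC was 3.69 ± 1.25 and did not pass (adjusted p = 0.0677). The groups did not overlap, which held for 69.9% of all genes in this comparison. Peg3 (-1.84 ± 0.53) and Mkrn3 (-1.72 ± 0.48) were lower in A-iPSC (adjusted p = 0.0188 and 0.0159), calls lost without A-iPSC 16 or ESC H, and for Mkrn3 also without A-iPSC 19. Relative to ESC, Ascl2 was lower by at least 1.48-fold in A-iPSC and by at least 1.65-fold in Y-iPSC (adjusted p = 0.0067 and 0.0118). The first was lost without A-iPSC 16 and the second without Y-iPSC 4, ESC D or ESC H.

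Growth genes were among these calls. Igf2 was lower in A-iPSC compared with ESC, at -4.08 ± 1.31 (adjusted p = 0.031). Cdkn1c had 8.10 and 9.32 in A-iPSC-ZSCAN10, 6.63 and 6.96 in A-iPSC, 7.19 and 9.30 in Y-iPSC, and 10.45 and 10.55 in ESC, and A-iPSC minus ESC was -3.70 ± 0.94 (adjusted p = 0.0104). Igf2r differed by -1.26 ± 0.45 (adjusted p = 0.0489), and its second probe by -1.04 (adjusted p = 0.106). Slc38a4, a paternally expressed amino acid transporter, had 5.69 and 5.50 in A-iPSC-ZSCAN10, 5.69 and 5.49 in A-iPSC, 5.91 and 5.26 in Y-iPSC, 6.84, 5.11 and 5.15 in A-SC, 7.43, 5.90 and 5.55 in Y-SC, and 7.32 and 7.60 in ESC. All iPSC arrays lay below ESC, and A-iPSC minus ESC was -1.87 ± 0.63 (adjusted p = 0.0383). Igf2, Cdkn1c, Igf2r, Impact and Slc38a4 each lost their call without any 1 of the 4 arrays.

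Gnas, which encodes the stimulatory G protein subunit, was the other member above ESC. It had 10.32 and 10.24 in A-iPSC-ZSCAN10, 10.50 and 11.13 in A-iPSC, 10.30 and 10.77 in Y-iPSC, 11.29, 10.30 and 10.46 in A-SC, 10.87, 10.59 and 9.48 in Y-SC, and 9.82 and 8.61 in ESC. A-iPSC minus ESC was 1.60 ± 0.52 (adjusted p = 0.0314), lost without A-iPSC 16, A-iPSC 19 or ESC H, and a second Gnas probe gave 1.48 (adjusted p = 0.0526). Pluripotency markers averaged 7.24 and 7.73 in A-iPSC-ZSCAN10, 7.08 and 7.06 in A-iPSC, 8.20 and 7.45 in Y-iPSC, and 10.8 and 10.7 in ESC, and their part in the differences from ESC was not tested.

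**Figure D5:**
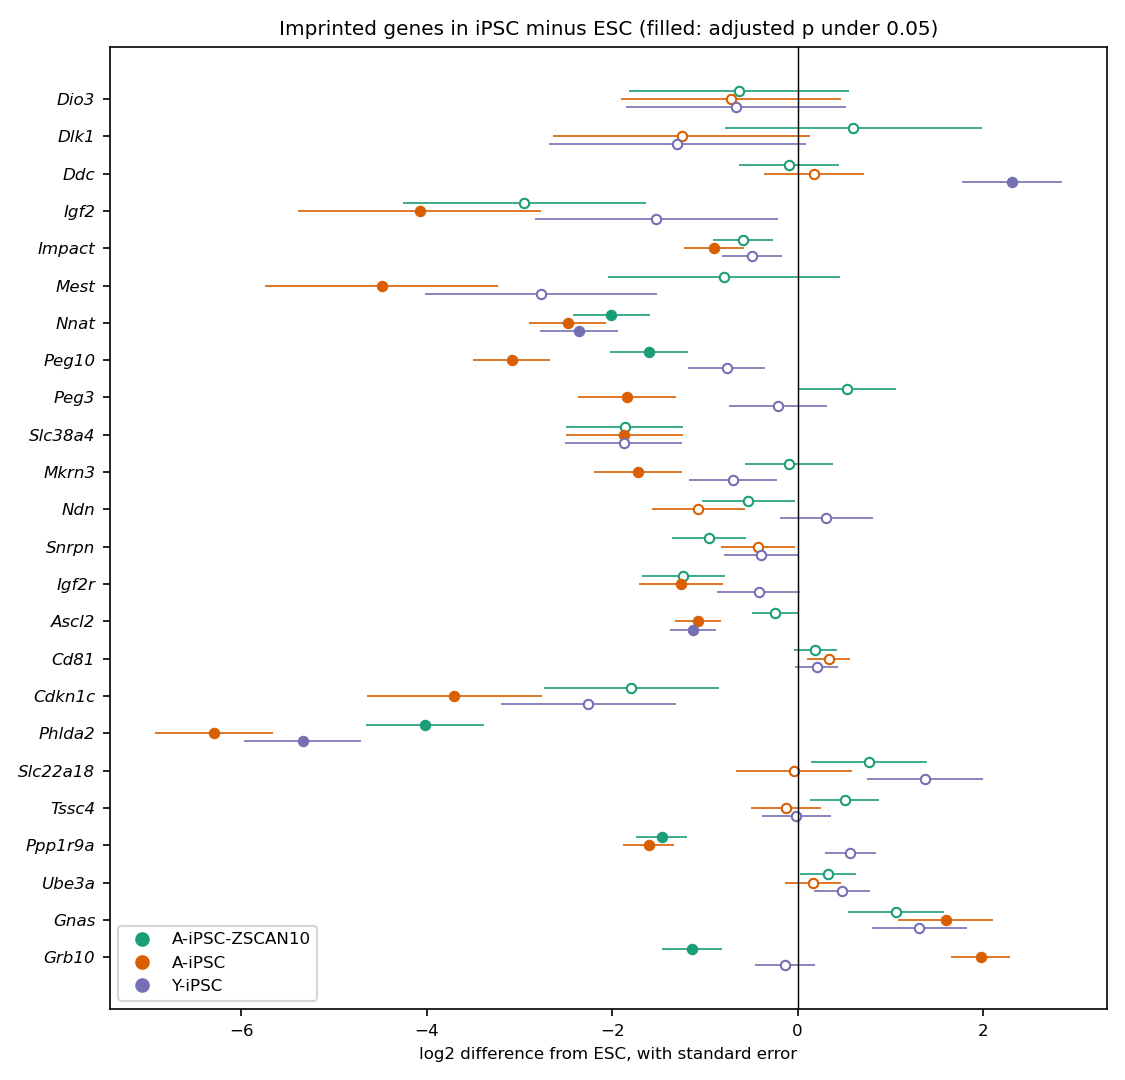
Log2 difference from ESC with standard error (x axis) of the 24 tested members (rows) in the 3 iPSC groups; filled points have an adjusted p under 0.05. A-iPSC has 13 filled points below 0 and 2 above, Phlda2 and Nnat are filled in all groups, and Grb10 lies at -1.14 in A-iPSC-ZSCAN10 and 1.98 in A-iPSC. Nnat passed the detection filter through ESC alone.

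A list of 33 genes linked to setting, keeping or removing imprints had 24 tested genes. Its counts mix these roles and do not measure how well imprints are kept. Of these, 4 were lower in A-iPSC compared with Y-iPSC (Dnmt3b, Kdm1b, Setdb1 and Trim28). The same 4 were higher in A-iPSC-ZSCAN10 compared with A-iPSC, and 1 was lower (Rb1, at -1.69 ± 0.47, limma adjusted p = 0.0303). All genes were called at 10.5% and 16.2%. Fits without 1 array and in other settings are given for members only, not for this list or the lists below. The medians were -0.22 and 0.23, against -0.01 and 0.03 over all genes. Trim28, the scaffold that ZFP57 recruits to imprinted control regions, was higher in A-iPSC-ZSCAN10 compared with A-iPSC by 1.04 ± 0.26 (adjusted p = 0.0197) and lower in A-iPSC compared with Y-iPSC, at -1.06 ± 0.26 (adjusted p = 0.024). Setdb1, the histone methyltransferase it binds, differed by 1.50 ± 0.29 and -1.17 ± 0.29 (adjusted p = 0.00567 and 0.0246), and Dnmt3b, a DNA methyltransferase, by 3.15 ± 0.68 and -2.58 ± 0.68 (adjusted p = 0.0104 and 0.0345). These pairs share the A-iPSC arrays. At reprogramming, A-iPSC-ZSCAN10 had 7 higher and 1 lower, with 2 and 2 in A-iPSC and 2 and 2 in Y-iPSC, and A-SC minus Y-SC had 1 higher (22%, 33.4%, 24.6% and 0.48% of all genes called). Against ESC, A-iPSC-ZSCAN10 had 1 higher and 5 lower, with 1 and 12 in A-iPSC and 1 and 5 in Y-iPSC (13.2%, 35.5% and 15% of all genes). Dppa3, which protects maternal imprints after fertilization, was detected in ESC and on no iPSC array, and the same held for Dnmt3l, a cofactor of DNA methylation in germ cells.

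Genes of the insulin-like growth factor pathway, of which 6 of 12 were tested, gave 2 higher and 1 lower in A-iPSC-ZSCAN10 minus A-iPSC and 2 lower in A-iPSC minus Y-iPSC, against 16.2% and 10.5% of all genes called. Igf2bp1 and Igf2bp3, which bind Igf2 mRNA, were higher with ZSCAN10 by 3.07 ± 0.52 and 3.12 ± 0.36 (adjusted p = 0.00288 and 0.000304) and lower in A-iPSC compared with Y-iPSC, at -3.18 ± 0.52 and -3.46 ± 0.36 (adjusted p = 0.00332 and 0.000177). Igf1r, a growth receptor that Grb10 binds, was lower with ZSCAN10, at -1.35 ± 0.37 (adjusted p = 0.029). At reprogramming, 1 was higher and 2 lower in A-iPSC-ZSCAN10, 1 lower in A-iPSC and 2 lower in Y-iPSC, and A-SC minus Y-SC had 2 lower (22%, 33.4%, 24.6% and 0.48% of all genes). Against ESC, 2 of the 6 were lower in A-iPSC-ZSCAN10, 2 lower and 1 higher in A-iPSC, and 1 lower in Y-iPSC (13.2%, 35.5% and 15% of all genes).

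A further list of 53 imprinted genes, of which 21 were tested, was also read. In A-iPSC-ZSCAN10 minus A-iPSC 2 were higher and 2 lower, and in A-iPSC minus Y-iPSC 2 were higher and 1 lower, against 16.2% and 10.5% of all genes called. Tspan32, which lies in the Kcnq1ot1 cluster, was higher with ZSCAN10 by 3.85 ± 0.52 and lower in A-iPSC compared with Y-iPSC, at -2.91 ± 0.52 (adjusted p = 0.000812 and 0.00519). Qpct, which encodes an enzyme that modifies peptide ends, was lower with ZSCAN10, at -2.90 ± 0.57 and higher in A-iPSC compared with Y-iPSC by 4.11 ± 0.57 (adjusted p = 0.00635 and 0.00114). Atp10a, beside the Snrpn cluster, was higher in A-iPSC compared with Y-iPSC by 2.92 ± 0.47 (adjusted p = 0.00305). At reprogramming the list gave 3 higher and 5 lower in A-iPSC-ZSCAN10, 8 and 6 in A-iPSC and 3 and 6 in Y-iPSC (22%, 33.4% and 24.6% of all genes). Against ESC it gave 4 higher and 3 lower in A-iPSC-ZSCAN10, 6 and 3 in A-iPSC, and 3 and 3 in Y-iPSC (13.2%, 35.5% and 15% of all genes). Its medians against ESC were 0.08, 0.29 and 0.15 in that order, all above 0, where those of the 24 members were below 0.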

How the data were processed

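Total RNA of 14 mouse samples was read on Illumina MouseRef-8 v2.0 BeadChips. For each probe and array, the deposited non-normalized table lists an intensity (bead signal) with its detection p-value, per the file headers; whether background was subtracted is not given in the sources used here. The authors' deposited value table holds the same intensity, quantile normalized without background correction as its columns show (equal ranks, minimum and maximum), and served as an alternative; the submitters' processing notes name lumi.

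In R 4.3.3, limma 3.58.1 corrected background from the detection p-values (neqc, offset 16), quantile normalized and took log2. The 14742 probes that all arrays of some group detected (p under 0.05) were fitted with 1 mean per group over all 14 arrays (8 residual degrees of freedom, prior 3.63). A gene was read by its brightest tested probe. Symbols came from the platform annotation, updated by gene ID for 23962 of 23978 probes. The steps were tested on simulated data. Values on every array are given for members called in at least 1 comparison without overlap of groups, for the 20 with the largest difference; Impact, the 21st, is named only. The members and lists were chosen with earlier results of these data known. Alternatives were another normalization, filter and probe rule, the export format, the arrays in the fit, and each array left out.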

Additional observations from a re-analysis of the deposited data

Results flagged for a closer look

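A test of the difference between the aged and young changes at reprogramming called 2 members. For Grb10 the change in A-iPSC minus A-SC less that in Y-iPSC minus Y-SC was 2.72 ± 0.41 (limma adjusted p = 0.00429); the level fell in young cells, and its difference in aged cells was not called. For Ppp1r9a it was -2.07 ± 0.35 (adjusted p = 0.0081). No A-SC or Y-SC array detected Ppp1r9a, so both rises are lower bounds, and this value does not show which was larger. The groups hold 2 iPSC arrays and 3 fibroblast arrays per donor age. Grb10 passed in all fits without 1 array, and Ppp1r9a in 9 of 10, with A-iPSC 19 the exception.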

How the results depend on the processing

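Of 65 called differences of members, 22 passed in every alternative, 26 in every fit without 1 array and 32 in every other alternative, and 0 changed sign. Without 1 array, the numbers called ran from 0 to 3 in A-SC minus Y-SC, 6 to 9 in Y-iPSC minus Y-SC, 4 to 7 in A-iPSC minus A-SC, 5 to 15 in A-iPSC-ZSCAN10 minus A-SC (5 without A-iPSC-ZSCAN10 7), 2 to 7 in A-iPSC minus Y-iPSC (2 without A-iPSC 19, 7 without Y-iPSC 12), 1 to 4 in A-iPSC-ZSCAN10 minus A-iPSC (1 when A-iPSC-ZSCAN10 7 was left out, 2 when A-iPSC 16 or 19 was), 1 to 2 in A-iPSC-ZSCAN10 minus Y-iPSC (2 without A-iPSC-ZSCAN10 7), 2 to 5 in Y-iPSC minus ESC (2 without ESC D or H), 6 to 9 in A-iPSC minus ESC, 2 to 3 in A-iPSC-ZSCAN10 minus ESC, and 1 to 4 in the difference of reprogramming changes (4 without Y-iPSC 12, 1 without A-iPSC 19). In A-SC minus Y-SC the count was 3 without A-SC 1 and 0 without Y-SC 1, Y-SC 16, A-SC 1.3 or A-SC 1.4. With the authors' value table the counts were 0 in A-SC minus Y-SC, 2 in A-iPSC-ZSCAN10 minus A-iPSC and 2 in A-iPSC-ZSCAN10 minus Y-iPSC. Of all genes 0.26%, 16.3% and 1.15% were called there, in that order. With no filter on dim probes the member counts were 0 in A-SC minus Y-SC, 3 in A-iPSC-ZSCAN10 minus A-iPSC and 3 in A-iPSC-ZSCAN10 minus ESC. Without this filter 0.18%, 14.2% and 11.8% of all genes were called, in that order. With only the arrays of a comparison they were 0 in A-SC minus Y-SC, A-iPSC minus Y-iPSC and A-iPSC-ZSCAN10 minus Y-iPSC, and 10 in A-iPSC-ZSCAN10 minus ESC. These fits have fewer arrays to estimate the spread. Between only the 4 arrays of 1 decimal, A-SC minus Y-SC had 0 calls, and without those 4 arrays the difference of reprogramming changes had 1. These fits by export format were chosen after seeing the data. The share of all genes called is not given for them or for the fits without 1 array. Those counts do not set the members apart from other genes. The sign of uncalled differences was followed only for those of at least 1.5 in size on the log2 scale. The 4 cases that follow are among these, and smaller uncalled differences were not followed. Uncalled differences changed sign in 4 cases: Dio3, A-SC minus Y-SC (-0.49) and Dio3, A-iPSC minus A-SC, less Y-iPSC minus Y-SC (0.44) without the 4 arrays of 1 decimal, and Dlk1, A-iPSC-ZSCAN10 minus A-iPSC (-0.78) and Dlk1, A-iPSC-ZSCAN10 minus Y-iPSC (-0.74) without A-iPSC-ZSCAN10 replicate 7; without replicate 3 they were 4.48 and 4.53. Median scaling moved the median of all genes to 0.17 in A-iPSC-ZSCAN10 minus A-iPSC, 0.16 in A-iPSC-ZSCAN10 minus A-SC, 0.13 in A-iPSC-ZSCAN10 minus Y-iPSC, 0.11 in A-iPSC-ZSCAN10 minus ESC and -0.15 in A-SC minus Y-SC. Beyond the built-in effect of fewer arrays, the cause was not tested. No paired analysis was possible because the groups compared share fewer than 2 clone codes. Members near background, such as Ascl2, Nnat and Dio3, have only bounds where undetected.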
